A study of Homo sapiens with 12 samples.

Results

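The genes described here are 5 feedback inhibitors of the ERK pathway, the dual-specificity phosphatases DUSP4, DUSP5 and DUSP6 and the Sprouty proteins SPRY2 and SPRY4. They were chosen by name, and they and the gene lists used below were chosen with earlier results of these data known. Counts set beside the share of all genes are therefore descriptions and no test. The 5 are among the 14582 genes measured, and each was read by 1 probe set, so no choice between probe sets was needed. RNA of SKMEL2 cells, an established human melanoma line, was measured on 12 Affymetrix arrays after 24 hours of treatment, with 3 arrays in each of 4 groups. The controls received the vehicle DMSO. The group DT received 100 nM dabrafenib together with 10 nM trametinib, the group E received 1 µM entinostat, and the group DTE received all 3 drugs at these doses. Dabrafenib inhibits RAF kinases, trametinib inhibits the kinases MEK1 and MEK2 below them, and entinostat inhibits class I histone deacetylases. All values come from 1 cell line. Since the titles name biological replicates where the design text has technical triplicates, a p-value here covers the spread between arrays and perhaps no more.

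ERK is the last kinase of a cascade that runs from growth factor receptors through RAS, RAF and MEK. Active ERK switches on genes whose products turn the cascade down again. DUSP4 and DUSP5 are phosphatases of the nucleus that remove the activating phosphates from MAP kinases, and DUSP5 is selective for ERK. DUSP6 does the same to ERK in the cytoplasm. SPRY2 and SPRY4 act further up, between the receptors and RAF. The transcripts of such genes are widely used as a readout of ERK output in melanoma cells, because many of them are lost when the pathway is blocked.

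In RefSeq (GRCh38.p14, used for positions and sequences only) DUSP5 lies at chr10:110497907-110511533, DUSP6 at chr12:89347235-89352501, SPRY2 at chr13:80335976-80341126 and SPRY4 at chr5:142310430-142325021. Promoter sequences are shown for DUSP6 and SPRY2, a pair with similar levels of change in DT that parted in DTE, as described further on. Each is the 250 bases just before the RefSeq start site, 5′ to 3′ on the minus strand, and capitals mark motif matches. The windows lie at chr12:89352502-89352751 for DUSP6 and at chr13:80341127-80341376 for SPRY2, where the second is the outermost of 3 annotated start sites.
DUSP6: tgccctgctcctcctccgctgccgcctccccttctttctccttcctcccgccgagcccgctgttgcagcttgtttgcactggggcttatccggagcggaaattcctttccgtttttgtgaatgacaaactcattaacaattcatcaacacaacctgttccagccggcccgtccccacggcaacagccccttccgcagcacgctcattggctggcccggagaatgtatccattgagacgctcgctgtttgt
SPRY2: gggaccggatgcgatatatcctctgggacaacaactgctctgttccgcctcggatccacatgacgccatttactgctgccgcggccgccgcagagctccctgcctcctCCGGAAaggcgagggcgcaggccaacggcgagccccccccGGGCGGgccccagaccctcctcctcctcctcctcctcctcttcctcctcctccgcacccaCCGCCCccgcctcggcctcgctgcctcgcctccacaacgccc
The motifs searched on both strands were the cyclic AMP element (TGACGTCA), AP-1 (TGACTCA and TGAGTCA), ETS (CCGGAA and CAGGAA), the E-box (CACGTG), the GC box (GGGCGG) and the CArG element. ETS and AP-1 factors are known ERK-regulated transcription factors. The DUSP6 window held none of these letters, and sites of other spelling or position were not looked for. The SPRY2 window held an ETS match at -142 to -137 and GC boxes at -102 to -97 and, on the other strand, at -42 to -37, counted from the start site. Of 34943 RefSeq promoter windows of this length, 35.6% held an ETS match, 42.5% a GC box and 4.22% an AP-1 match, so the ETS and GC box matches are common ones. Of the other SPRY2 windows, the middle one held no match and the innermost an ETS match at -246 to -241. The SPRY4 window, which lies within the span of the gene, held a GC box at -183 to -178 and no other match.

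The melanoma label was checked against melanocyte lineage genes. Of 9 listed, 8 were measured, among them MITF, SOX10, PMEL and TYR, and all 8 were above background in every group. Their summed intensity was 5097 to 5827 on the DMSO arrays and 4232 to 4765 on the DT arrays, with 4285 to 6148 for E and 2444 to 2646 for DTE. Background was estimated per array from the dimmest 25% of genes (their 95th percentile), at 11.1 to 16.2. The arrays themselves differed in level. The geometric mean of the brighter genes was 129 ± 15.0 (SD, n = 3) on DMSO arrays and 103 ± 7.22 on DT arrays. It was 143 ± 18.7 with entinostat alone and 65.5 ± 3.78 with all 3 drugs, which is 50.8% of DMSO. Deposited values therefore carry a downward shift in DTE that most genes share, with a median log2 difference of -0.54 from DMSO. In bulk RNA, fewer cells and less RNA per cell cannot be told apart, and the part of scaling was not tested. Each difference is given on the deposited scale with the standard error (SE) of a limma fit and an adjusted p. After it stands the same difference once the arrays were quantile-normalized, which removes level differences between arrays by force and is called the quantile value.

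DT lowered all 5 inhibitors, and most of all SPRY4 and DUSP4. All 5 were called lower (adjusted p under 0.05), where 23.1% of all genes were, and all 5 were also called lower after quantile normalization, where 15.0% of all genes were. Their median log2 difference was -1.66 against -0.12 for all genes, and -1.63 against -0.0022 in quantile values. The median gene is DUSP5, whose DT arm was not above background. In ordered log2 differences over 14582 genes, SPRY4 had rank 2 from the lowest and DUSP4 rank 6.

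Among the nuclear phosphatases, DUSP4 (chr8:29333064-29350684) stood at 268, 302 and 233 on the 3 DMSO arrays and at 43.6, 37.1 and 41.1 in DT. Every DT array lay far below every DMSO array. This is a 6.56-fold fall, or -2.71 ± 0.16 on the log2 scale (adjusted p = 1.9e-11), with a quantile value of -2.32. DUSP5, the ERK-selective nuclear phosphatase, was much closer to background. It read 18.8, 23.0 and 20.9 in DMSO and 6.03, 8.15 and 5.77 in DT. The DT values were not above background, so the fall is at least 1.6-fold, with a fitted difference of -1.66 ± 0.15 (adjusted p = 8.6e-09) and a quantile value of -1.63.

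The cytoplasmic phosphatase DUSP6 also fell. It read 394.5, 436 and 382 in DMSO and 184, 175 and 199.8 in DT, with no overlap between the groups. The 2.17-fold fall was -1.12 ± 0.13 on the log2 scale (adjusted p = 7.3e-07; quantile value -0.79). On the deposited scale 46.1% of the DMSO signal remained in DT, above the shares of DUSP4 (15.2%), SPRY2 and SPRY4, while that of DUSP5 is not known below background.

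Of the Sprouty genes, SPRY2 read 429.8, 427 and 368 in DMSO and 152, 151 and 167 in DT. The groups were again apart, with a 2.60-fold fall (-1.38 ± 0.15, adjusted p = 1.3e-07, quantile value -1.04). SPRY4 went from 976, 982 and 754 in DMSO to 58.1, 45.6 and 61.1 in DT. This 16.5-fold fall (-4.04 ± 0.17, adjusted p = 3.7e-14, quantile value -3.71) left 6.1% of the DMSO signal, against 38.5% for SPRY2. Both Sprouty genes were above background in DT.

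**Figure D1:**
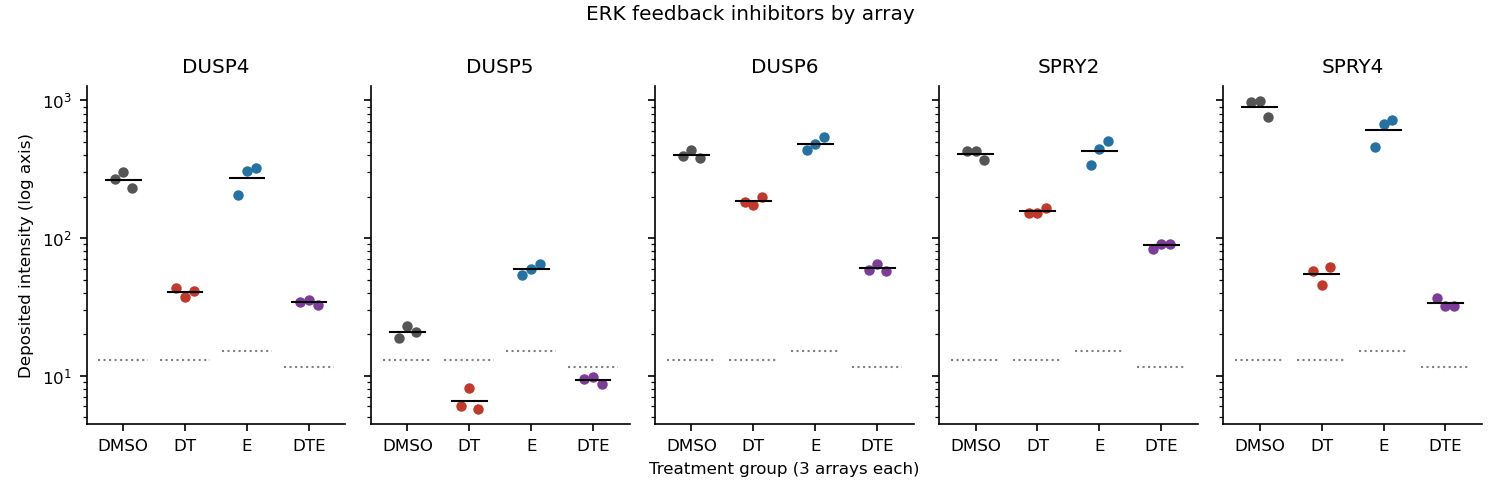
Deposited intensity (log scale) of each of the 5 genes on each of the 12 arrays, by group, with the group mean as a bar and the group's background level as a dotted line. SPRY4 fell from 754 to 982 in DMSO to 45.6 to 61.1 in DT, DUSP5 stood above the dotted background level in DMSO and E only, and DUSP6 went from 175 to 199.8 in DT to 57.3 to 64.9 in DTE.

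Entinostat alone raised 1 of the 5, DUSP5, and lowered 1, SPRY4. Among all genes 20.8% were called higher and 4.81% lower on the deposited scale, and 15.3% and 16.2% in quantile values. The median of the 5 was 0.061, against 0.14 for all genes (quantile values -0.012 and -0.033).

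DUSP5 read 54.0, 60.1 and 64.5 in E, so each E array was above each DMSO array, and the gene was clearly above background. Its rise was 2.86-fold (1.51 ± 0.15, adjusted p = 3.4e-08, quantile value 1.10). SPRY4 read 455, 676 and 719 in E, all below the lowest DMSO array at 754. Its fall was 1.48-fold in deposited values (-0.57 ± 0.17, adjusted p = 0.014). In those values it lost its call without DMSO replicate 1 (-0.51, adjusted p = 0.055), DMSO replicate 2 (-0.50, 0.069) or E replicate 1 (-0.36, 0.091). The quantile value was -0.65 (adjusted p = 0.0019), and centring the arrays on their median or on the brighter genes gave -0.85 and -0.72.

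The other 3 were not called in E. DUSP4 read 207, 306 and 325 in E and differed from DMSO by 0.043, with a 95% confidence interval from -0.28 to 0.37. SPRY2 read 340.1, 443 and 509, a difference of 0.061 (interval -0.24 to 0.36). DUSP6 read 434, 481 and 539.5, a difference of 0.26 (interval -0.016 to 0.54; adjusted p = 0.17). For each of these genes the E arrays overlapped the DMSO arrays, and the direction of DUSP4 and SPRY2 turned below 0 in quantile values, while that of DUSP6 did so after median centring. The intervals leave room for modest changes in either direction.

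Markers of other cell types were read beside these changes. The endothelial list (2 of 4 measured) summed to 42.1 to 59.6 in DMSO and 213 to 314 in E, mostly from KDR, at 39.3 ± 9.34 in DMSO and 262 ± 55.8 in E (SD, n = 3). The part of that in the DUSP5 change was not tested. The immune list (2 of 5 measured, CD14 and LYZ) summed to 91.2 to 96.4 in DMSO and 107 to 134 in E. The fibroblast list (2 of 5 measured) summed to at most 20.3 on any array, with only LUM above background and only in DTE. Of 5 keratinocyte markers KRT14 was above background in every group and DSG3 in E and DTE.

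With all 3 agents every one of the 5 genes was below its DMSO level. On the deposited scale 60.8% of all genes were called lower in DTE than in DMSO, so the count says little by itself, and in quantile values 23.0% were. The median of the 5 was -2.74 against -0.54 for all genes, and -1.71 against -0.036 in quantile values. SPRY4 read 37.0, 32.3 and 32.2 in DTE, 26.6-fold below DMSO (-4.73, adjusted p = 1.6e-15, quantile value -3.80). DUSP4 read 34.5, 35.4 and 32.6, 7.8-fold below DMSO (-2.96, adjusted p = 1.5e-12, quantile value -1.99). Both remained above background in DTE. DUSP6 read 59.0, 64.9 and 57.3, 6.69-fold below DMSO (-2.74, adjusted p = 4.1e-13, quantile value -1.71). SPRY2 read 83.9, 90.3 and 91.0, 4.61-fold below (-2.21, adjusted p = 2.3e-11, quantile value -1.13). DUSP5 read 9.54, 9.82 and 8.68, not above background, which is at least 1.8-fold below DMSO (fitted -1.16, adjusted p = 2.9e-07, quantile value -0.97). Its call was lost when arrays were centred on the brighter genes (-0.18).

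The step from DT to DTE compares cells given DT with and without entinostat, and it holds the drop in array level described above. Here the 5 genes parted. DUSP6 fell further on every scale: no DTE array came near the lowest DT array at 175. The further fall was 3.08-fold (-1.63, adjusted p = 2.6e-09), and the quantile value was -0.92 (adjusted p = 3.8e-06). On the deposited scale 54.0% of all genes were called lower in DTE than in DT and 4.09% higher, against 3 of the 5 lower and 1 higher. In quantile values 18.2% were lower and 16.2% higher, against 1 of the 5 lower, DUSP6, and 2 higher, DUSP4 and DUSP5.

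SPRY2 fell from DT to DTE by 1.77-fold in deposited values (-0.83, adjusted p = 4.9e-05), but the quantile value was -0.093 (adjusted p = 0.44). SPRY4 did likewise, 1.61-fold (-0.69, adjusted p = 0.0013) with a quantile value of -0.096 (adjusted p = 0.62). For both, the step was close to that of genes of like brightness: with the genes split by mean intensity into 10 groups of equal size, the median was -0.71 in the brightest group, which holds DUSP6 and SPRY2, and -0.75 in the next, which holds SPRY4. Against these medians SPRY2 stood at -0.12, SPRY4 at 0.057 and DUSP6 at -0.92. Against the medians of their own brightness groups DUSP4 stood at 0.48 and DUSP5, with both arms below background, at 0.82. The comparison with genes of like brightness was added after the values were seen.

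DUSP4 was lower in DTE than in DT by 0.25 on the log2 scale, which did not pass the test (-0.25, interval -0.58 to 0.079, adjusted p = 0.18). In quantile values it was higher (0.33, adjusted p = 0.027), so its direction at this step depends on the scaling. DUSP5 was called higher in DTE (0.51, adjusted p = 0.0052, quantile value 0.66), but both arms were below background, so no fold is given.

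**Figure D2:**
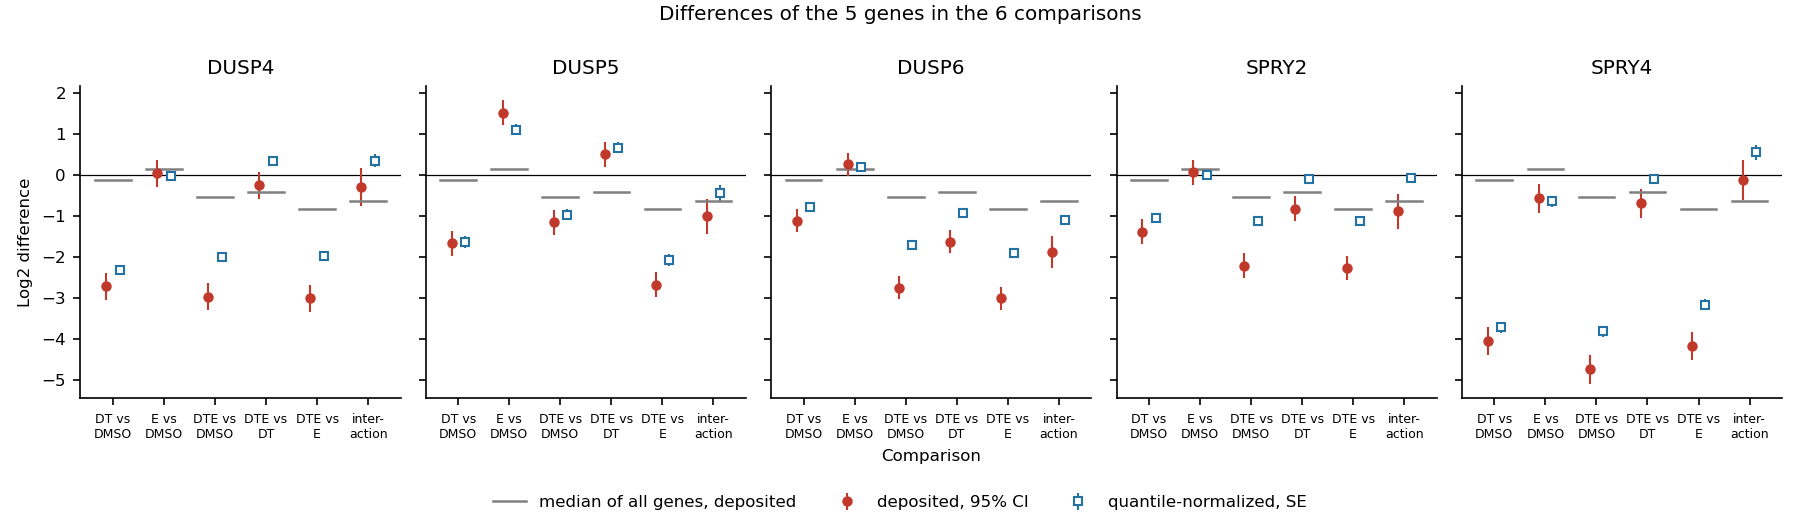
Log2 differences of the 5 genes in each comparison, for deposited values (filled, with 95% confidence intervals) and quantile-normalized values (open, with SE), and grey lines at the deposited median of all genes. In DT against DMSO all 5 lie below 0 on both scales, from -1.12 to -4.04 in deposited values, and in DTE against DT DUSP6 is at -1.63 and -0.92 while SPRY2 is at -0.83 and -0.093.

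Read the other way, adding DT to entinostat lowered all 5 genes, among 78.5% of all genes in deposited values and 10.8% in quantile values. The falls from E to DTE were 17.9-fold for SPRY4 (-4.16, quantile value -3.16), 8.03-fold for DUSP4 (-3.01, -1.97), 8.01-fold for DUSP6 (-3.00, -1.89), 4.81-fold for SPRY2 (-2.27, -1.12) and at least 5.15-fold for DUSP5 (-2.67, -2.07). The entinostat-raised level of DUSP5, at 59.5 ± 5.3 (SD, n = 3), thus went to 9.35 ± 0.593, which is below background. DUSP6 moved from rank 443 from the lowest in DT against DMSO to rank 7 in DTE against E.

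The interaction asks whether the effect of DT differed with and without entinostat. It was called for DUSP6 (-1.89 ± 0.19, adjusted p = 5.9e-07), DUSP5 (-1.01 ± 0.21, adjusted p = 5.8e-04) and SPRY2 (-0.89 ± 0.21, adjusted p = 0.0014). Over all genes 62.5% were called lower, with a median of -0.63, so 3 of the 5 is near the share of all genes. In quantile values only DUSP6 was called (-1.10, adjusted p = 3.6e-04), where 2.19% of all genes were called lower. The quantile value was -0.44 (adjusted p = 0.24) for DUSP5, which rests on arms below background, and -0.081 (adjusted p = 0.80) for SPRY2. Put as intensities, DUSP6 in DTE was 27.1% of the level that the separate effects of DT and E multiply to, and 46.5% in quantile values. The interaction was not called for DUSP4 (-0.29, interval -0.75 to 0.17) or SPRY4 (-0.12, interval -0.62 to 0.37), and both turned above 0 in quantile values (0.35, adjusted p = 0.23, and 0.55, adjusted p = 0.12). Other scalings called them above 0: SPRY4 with median centring (0.61, adjusted p = 0.030) and with brighter-gene centring (0.68, adjusted p = 0.016), and DUSP4 with brighter-gene centring (0.51, adjusted p = 0.028). In deposited values that of DUSP4 was called below 0 without E replicate 1 (-0.50, adjusted p = 0.027). The direction of both therefore depends on the scaling.

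Differences between genes on the same array are nearly free of the array's level, and they show the same parting of genes. They are given relative to their DMSO mean, with no test. DUSP4 lay 1.60 ± 0.11 log2 units lower against DUSP6 in DT (mean -1.60, SD over 3 arrays, range -1.68 to -1.48), but only -0.22 ± 0.050 in DTE. The wide gap between these phosphatases in DT had therefore almost closed in DTE, where DUSP6 had fallen further. DUSP4 also moved up against SPRY2, from -1.34 ± 0.13 in DT to -0.76 ± 0.10 in DTE. DUSP6 against SPRY2 was 0.26 ± 0.036 in DT and -0.54 ± 0.10 in DTE, with no overlap between the groups. SPRY2 against SPRY4 was 2.66 ± 0.18 in DT, 0.63 ± 0.095 in E and 2.53 ± 0.18 in DTE. The Sprouty pair thus kept about the same gap in DT and DTE. After quantile normalization, in DT and DTE, DUSP4 against DUSP6 gave -1.54 and -0.29 and DUSP4 against SPRY2 gave -1.29 and -0.86. DUSP6 against SPRY2 gave 0.25 and -0.58, and SPRY2 against SPRY4 gave 2.67 and 2.67.

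**Figure D3:**
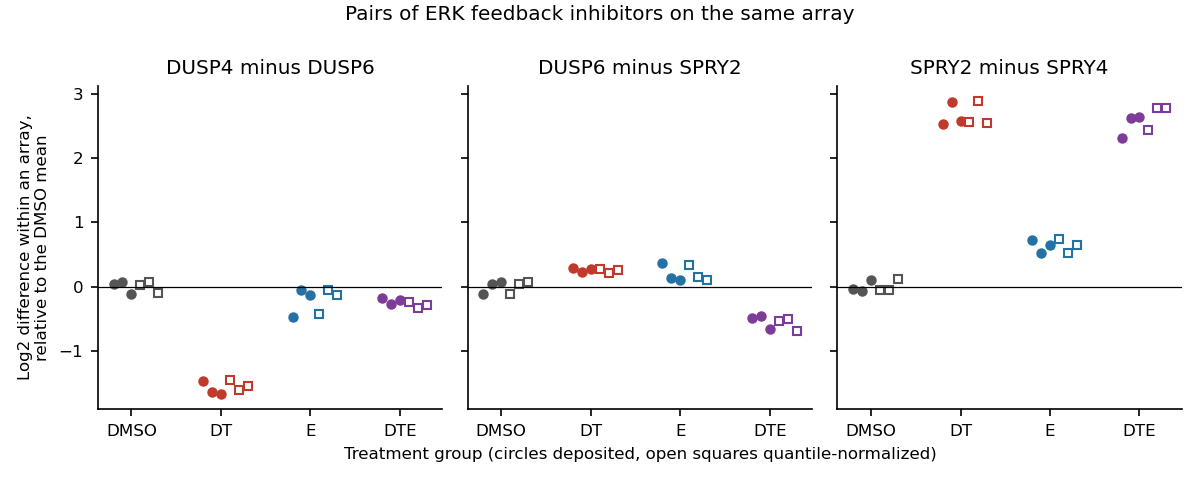
Log2 difference between 2 genes on the same array, relative to its DMSO mean, for 3 pairs and each of the 12 arrays (circles deposited, open squares quantile-normalized). DUSP4 minus DUSP6 is near -1.60 in DT and near -0.22 in DTE, DUSP6 minus SPRY2 changes sign between DT and DTE, and SPRY2 minus SPRY4 is near 2.66 and 2.53.

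The other MAP kinase phosphatases ranged from -1.09 to 0.56 in DT, and all 7 listed were measured. In DT 4 were called lower and 1 higher, with a median of -0.43, where 23.1% of all genes were lower and 4.72% higher. In quantile values 3 were lower and 2 higher, with a median of -0.16, where 15.0% and 14.6% of all genes were. DUSP10, which acts on p38 and JNK, fell from 786 ± 72.5 in DMSO to 370 ± 31.3 in DT (SD, n = 3; -1.09 ± 0.14, quantile value -0.75). DUSP7 (-0.93 ± 0.16) and DUSP9 (-0.74 ± 0.13), the close relatives of DUSP6 in the cytoplasm, also fell, and both kept their call in quantile values (-0.62 and -0.56). DUSP1, a nuclear phosphatase of the immediate early response, was called lower in deposited values only (-0.43, adjusted p = 0.034, quantile value -0.16). DUSP8, which prefers JNK and p38, rose (0.56 ± 0.15, quantile value 0.66). DUSP2 and DUSP16 were not called in DT (-0.28 and 0.051), although DUSP16 was called higher in quantile values (0.41).

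Entinostat alone raised 1 of the 7, DUSP1 (0.57, adjusted p = 0.0061, quantile value 0.34), where 20.8% of all genes were higher, and 15.3% in quantile values. From DT to DTE 4 were called lower, DUSP2, DUSP7, DUSP8 and DUSP16, and none higher, where 54.0% of all genes were lower, so the count is near that of all genes. In quantile values DUSP8 (-0.66) and DUSP16 (-0.42) were lower, and DUSP1 (0.69), DUSP9 (0.66) and DUSP10 (0.71) were higher. Over all genes 18.2% were lower and 16.2% higher in these values. DUSP7, the relative of DUSP6, had a quantile value of -0.25 at this step (adjusted p = 0.19), against -0.92 for DUSP6. The difference between them was not tested.

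Of 5 other Sprouty and SPRED genes 1, SPRY3, was analysed here. Unlike SPRY2 and SPRY4 it was not called in DT (0.26, adjusted p = 0.26) in deposited values, and it was called higher in quantile values (0.42). In E it rose from 35 ± 4.88 to 106 ± 21.1 (SD, n = 3; 1.60 ± 0.16, adjusted p = 5.1e-08, quantile value 1.27). In DTE it was above DT (0.37, adjusted p = 0.048, quantile value 1.03).

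**Figure D4:**
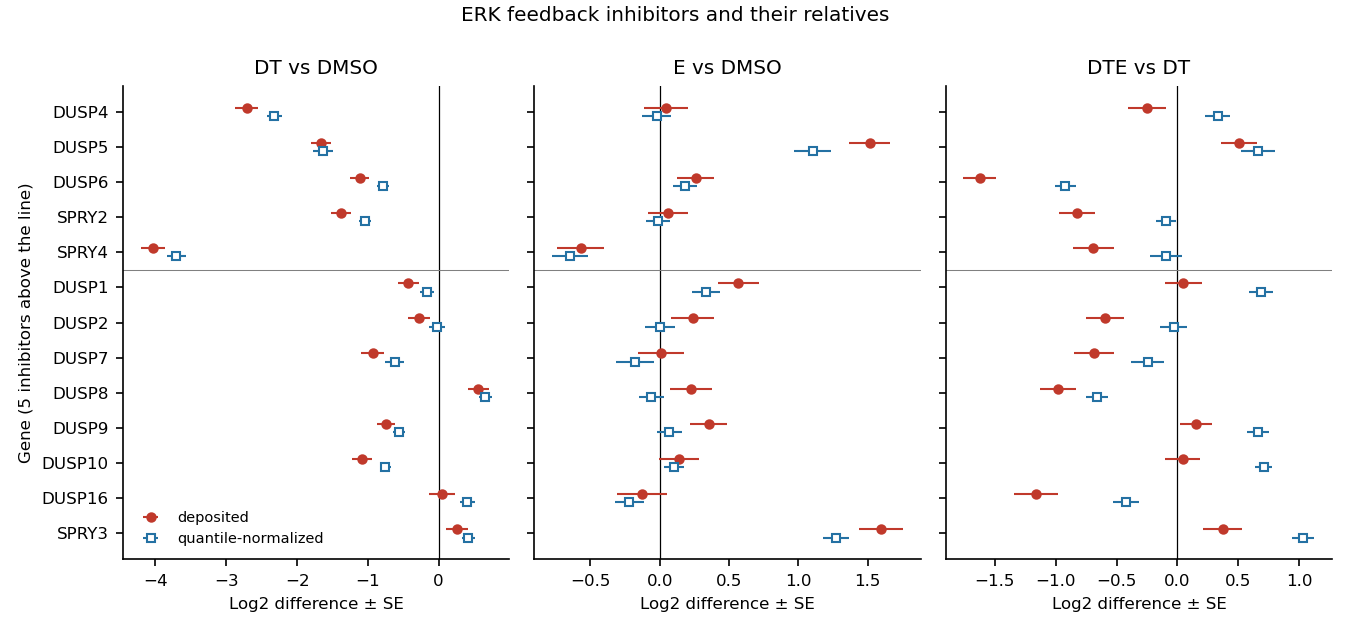
Log2 differences (± SE) in DT against DMSO, E against DMSO and DTE against DT for the 5 genes, above the line, and the measured relatives among MAP kinase phosphatases and Sprouty proteins, in deposited (filled) and quantile-normalized (open) values. SPRY4 (-4.04) and DUSP4 (-2.71) lie lowest in DT, and SPRY3 (1.60) and DUSP5 (1.51) highest in E.

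Of 14 atypical and small dual-specificity phosphatases, most of which do not act on ERK, 13 were measured. In DT 2 were higher, DUSP14 (0.78) and DUSP19 (0.50), and 1 lower, DUSP12 (-0.77), with a median of -0.020 against -0.12 for all genes. In quantile values 6 were higher and 1 lower. Over all genes 4.72% were higher and 23.1% lower, and in quantile values 14.6% and 15.0%. Among 9 measured of 17 other negative regulators of receptors, RAS and ERK, 2 fell and 1 rose in DT (in quantile values 2 and 5). ERRFI1, an inhibitor of EGF receptor family kinases, fell (-0.94 ± 0.14, quantile value -0.63), as did RASA2, a GTPase-activating protein for RAS (-1.16 ± 0.17, quantile value -0.81). SPSB1 rose (1.08 ± 0.14, quantile value 1.15). In E 2 of the 9 were called higher and 0 lower, where 20.8% of all genes were higher and 4.81% lower. In quantile values 5 were higher and 0 lower, where 15.3% and 16.2% of all genes were. ERRFI1 rose in E (1.29 ± 0.14, quantile value 1.12), as DUSP5 did. Unlike DUSP5 it stayed above background throughout, at 41.4 ± 5.85 in DT and 68.1 ± 2.57 in DTE (SD, n = 3). IL17RD, also above background in every group, went from 17.5 ± 1.37 in DMSO to 75.5 ± 15.2 in E (SD, n = 3).

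Other transcripts known to depend on ERK were read from a list of 30, of which 25 were measured. In DT 17 were called lower and 0 higher, with a median of -0.51, where 23.1% of all genes were lower and 4.72% higher. In quantile values 14 were lower and 2 higher, with a median of -0.26, where 15.0% and 14.6% of all genes were. ETV4 (-3.11 ± 0.15) and ETV5 (-1.98 ± 0.15), ETS factors of the PEA3 group, and MYC (-2.57 ± 0.17) fell most clearly, and EPHA2, a receptor tyrosine kinase, fell by 1.34. In E 10 of the 25 were called higher and 1 lower, MYC (-1.35), where 20.8% of all genes were higher and 4.81% lower. In quantile values 5 were higher and 6 lower, where 15.3% and 16.2% of all genes were. Of 34 core genes of the cascade from receptors to ERK effectors 22 were measured, of which 4 were lower and 2 higher in DT, with a median of 0.041, where 23.1% of all genes were lower and 4.72% higher. In quantile values 2 were lower and 11 higher, where 15.0% and 14.6% of all genes were. MAP2K1, which encodes the trametinib target MEK1, fell (-0.66 ± 0.14, quantile value -0.29).

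For each inhibitor the 3 genes with the most similar pattern were sought by the root mean square difference of log2 values over the 12 arrays, each gene centred on its own mean. The 5 inhibitors themselves and genes whose symbols start with LOC were left out of this search. DUSP4 was most like NPPC (0.22), GPR3 (0.27) and ETV4 (0.28). DUSP6 was most like FOSL1 (0.18), which encodes an AP-1 subunit, followed at a distance by CENPO (0.29) and NIF3L1 (0.32). FOSL1 shared the further fall in DTE, at 239 ± 8.15 in DMSO, 106 ± 6.36 in DT and 38.5 ± 5.18 in DTE (SD, n = 3). SPRY2 was most like TSPAN14 (0.086), ZC3H13 (0.12) and MIS18A (0.13), the smallest distances of any of the 5. DUSP5 was most like ICAM1 (0.26), TESC (0.27) and RTKN2 (0.31), which rose in E and fell in DT. None of these 3 was among its nearest 3 in quantile values. The DT and DTE values of DUSP5 were not above background, so its pattern there is not resolved. For SPRY4 the nearest was UCN2 at 0.43 and the next ZNF114 at 0.70. The distances were not scaled for the size of change, so genes that change more can show larger ones. Among the 5 themselves, DUSP6 and SPRY2 were closest (0.33) and DUSP5 and SPRY4 farthest (1.31). The nearest gene was the same in quantile values for DUSP4, DUSP6, SPRY2 and SPRY4. These are descriptions of the same arrays, and no test was made.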

How the data were processed

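The authors deposited 1 linear intensity for each probe set and array. The submitters' processing notes name RMA and Transcriptome Analysis Console without versions. Per the labels' protocols, ERCC spike-ins went into the lysis reagent, and their use in scaling is not stated there. The design written beforehand assumed log2 values. The deposited intensities were linear, so log2 was taken with no pseudocount and no filter on dim genes. Precision is limited by having 3 arrays per group.

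The platform table and RefSeq symbols tied 14750 of 29398 probe sets (50.2%) to a single gene, which gave 14582 genes. For the 156 genes read more than once, the probe set of highest mean was kept. A limma 3.58.1 model (lmFit, eBayes; R 4.3.3) gave each group its own mean over the 12 arrays, with 6 comparisons and Benjamini-Hochberg adjustment over all genes within each, at a threshold of 0.05. Standard errors and intervals are of that fit. On data simulated for DT against DMSO over 14582 genes, 100% of log2 changes of 2 in either direction were called. So were 88% of falls of 1, 92% of rises of 1 and 0.0695% of 14382 unchanged genes. The unchanged genes had a mean log2 difference of -0.0023 there. How often genes are called when the arrays differ in level, as the deposited ones do, was not tested.

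A group mean below the mean of its arrays' background levels gave only a bound, computed against that level. The members and lists were chosen with earlier results of these data known. Besides the members, the measured MAP kinase phosphatases, Sprouty and SPRED genes, cell type markers and the 3 genes most like each member are named. So are up to 4 genes of each other list with the smallest adjusted p in DT against DMSO, and IL17RD for its rise. Alternatives were quantile normalization, centring on the median or on the brighter genes, a replicate block, an intensity trend with robust fitting, a filter on dim genes, the mean of probe sets, a fit of only the groups compared, and leaving out each array.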

Additional observations from a re-analysis of the deposited data

Results flagged for a closer look

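For 3 of the 5 genes the effect of DT was called as differing with and without entinostat, by the interaction term of the limma fit. Over all genes 62.5% were called lower with a median of -0.63, so the count is near that of all genes. Among genes of like brightness the median was -0.76 in the group of DUSP6 and SPRY2 and -0.58 in that of DUSP5. In quantile values 1 of the 5 was called, where 2.19% of all genes were lower. DUSP6 changed by -1.12 without entinostat and by -3.00 with it, a difference of -1.89 (adjusted p = 5.9e-07), which held in quantile values (-1.10, adjusted p = 3.6e-04). DUSP5 changed by -1.66 and -2.67, a difference of -1.01 (adjusted p = 5.8e-04), with a quantile value of -0.44 (adjusted p = 0.24). Its DT and DTE arms were not above background, so these values do not measure how far it fell. SPRY2 changed by -1.38 and -2.27, a difference of -0.89 (adjusted p = 0.0014), with a quantile value of -0.081 (adjusted p = 0.80).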

How the results depend on the processing

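Of 595 alternatives over 30 results for the 5 genes, 556 kept direction and side of the threshold. The falls of all 5 in DT against DMSO and in DTE against E kept both under every alternative run. The replicate block, the intensity trend, the mean of probe sets, the filter on dim genes and, except for the interaction, to which it was not applied, the fit of only the groups compared changed no call of these genes. With the replicate block the difference of DUSP6 between DTE and DT was -1.63. Deviations from the group means correlated at -0.22 to 0.13 between arrays of the same number and at -0.14 to 0.27 between others. No pairing by number was seen in the values, which cannot show whether arrays of the same number were handled together.

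In quantile, median-centred and brighter-gene-centred values, in that order, DUSP4 gave -0.020, -0.24 and -0.11 in E against DMSO, 0.33, 0.20 and 0.41 in DTE against DT, and 0.35, 0.44 and 0.51 for the interaction. SPRY2 gave -0.012, -0.22 and -0.087 in E, and -0.081, -0.16 and -0.085 for the interaction. SPRY4 gave -0.096, -0.25 and -0.037 in DTE against DT, and 0.55, 0.61 and 0.68 for the interaction. DUSP5 gave -0.44, -0.28 and -0.20 for the interaction, and -0.18 in DTE against DMSO with brighter-gene centring. DUSP6 gave -0.025 in E with median centring. SPRY2 gave -0.093, -0.38 and -0.17 in DTE against DT, and of these only the median-centred value was called. The cause was not tested.

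Counts of genes called moved with the scaling, in the same order. In DT against DMSO 2135, 2286 and 4294 were higher (688 in deposited values), and 2188 and, with brighter-gene centring, 1954 lower (3368). In E 1699 were higher with median centring (3033), and 2362, 3813 and 2210 lower (701). In DTE against DMSO 2911, 5518 and 8456 were higher (621), and 3358, 4624 and 2598 lower (8869). In DTE against DT 2369, 3519 and 6322 were higher (597), and 2651, 3737 and 2095 lower (7869). In DTE against E 1362, 5274 and 7427 were higher (36; 15 without the dimmest 25% of genes), and 1569, 2812 and 1449 lower (11453). For the interaction 279, 1872 and 2492 were higher (30; 19 without the dimmest), and 320, 668 and 524 lower (9117).

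Leaving out each array gave -0.080 to 0.25 for DUSP4 and -0.069 to 0.22 for SPRY2 in E, -0.69 to -0.36 for SPRY4 in E, -0.50 to -0.17 for the interaction of DUSP4 and -0.33 to 0.0037 for that of SPRY4, 411 to 933 genes lower in E and 19 to 37 higher for the interaction. DUSP5 in DT and DTE is limited by signal over background.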

Other observations

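The pathways of JNK and p38, the MAP kinases that several dual-specificity phosphatases also act on, were read beside the ERK inhibitors. Of 20 listed genes 15 were measured, and in DT 5 were called lower and 1 higher, with a median of -0.24, where 23.1% of all genes were lower and 4.72% higher. In quantile values 3 were lower and 2 higher, with a median of 0.037, where 15.0% and 14.6% of all genes were. JUN, which encodes an AP-1 subunit, rose from 115 ± 14.2 in DMSO to 523 ± 40.1 in DT (SD, n = 3; 2.19 ± 0.14, quantile value 2.52), and stood at 148 ± 9.74 in DTE. MAP3K5, a kinase upstream of JNK and p38, fell (-1.97 ± 0.16, quantile value -1.61), as did MAP2K3 (-0.86) and MAPKAPK3 (-0.84). In the ERK cascade RRAS, a RAS relative, rose in DT (1.57 ± 0.13, quantile value 1.92) and SOS2, an exchange factor for RAS, rose by 0.70 (quantile value 0.96), while the receptor gene MET fell (-0.61, quantile value -0.26).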
